A study of Mus musculus with 9 samples.

Results

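The genes described here are 35 genes of the limb ectoderm and of epithelia in general, chosen by name: transcription factors of the embryonic ectoderm, keratins, adhesion and junction genes, regulators of the epithelial state, and trafficking and membrane protease genes. Each gene is represented by the probe set that the array annotation pairs with its symbol alone and that had the highest mean over all arrays. A probe set of this kind was found for 34 of the 35 genes, out of 18193 genes with such a probe set, and Sp9 has no value here. The study dissociated mouse forelimb buds of E10.5, sorted the cells by their GFP, and hybridised their RNA to Affymetrix Mouse430_2 arrays, 9 in number, with 3 groups of 3. PAX3-FKHR GFP+ cells came from Pax3PAX3-FKHR/GFP embryos, in which a PGK-Cre transgene activates the conditional PAX3-FKHR-IRESnlacZ allele, so that the fusion protein is made where Pax3 is normally transcribed and neither allele gives mouse Pax3. Control GFP+ cells came from Pax3GFP/+ embryos, which keep 1 working Pax3 allele. GFP- cells are the limb bud cells outside the GFP gate. The sample labels give no genotype for them, and the descriptions of the experiment name both Pax3GFP/+ and Pax3+/+ embryos as their source. Limb buds of the same genotype were pooled before sorting, so the replicates, numbered 1 to 3 in each group, are pools and not embryos, and p-values measure the spread between these pools.

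The limb bud at this stage is a core of mesenchyme with blood vessels and immigrating muscle progenitors, wrapped in a thin ectoderm whose distal rim, the apical ectodermal ridge, feeds growth signals to the mesenchyme below it. Ectodermal cells are held together by E-cadherin junctions, tight junctions and desmosomes, and are built on keratin filaments. Their identity is maintained by transcription factors such as p63, and they splice many transcripts in an epithelial pattern. Muscle progenitors in the limb derive from the somite, carry Pax3, and have left their epithelium before they migrate. In bulk samples such as these, fewer ectoderm cells in a sort and less of their RNA per cell cannot be told apart.

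Values are the authors' RMA values, a summary of the probes of a set on the log2 scale, so that a difference of 1 is a doubling. A call, higher or lower, needs an adjusted p under 0.05 in limma (Benjamini-Hochberg, over 45037 probe sets) together with a log2 fold change of at least 0.5 in either direction. The labels can be checked against Pax3 itself, whose brightest probe set read 7.15, 6.83 and 7.33 in PAX3-FKHR GFP+ cells, 9.92, 8.94 and 10.22 in control GFP+ cells and 5.17, 5.14 and 4.77 in GFP- cells. It was called lower in PAX3-FKHR GFP+ than in control GFP+ cells (log2 fold change -2.59, adjusted p = 0.00363). It was also called higher in PAX3-FKHR GFP+ than in GFP- cells, by 2.08 (adjusted p = 0.00211). The source of this remaining signal was not tested. All 9 myogenic progenitor markers measured, among them Lbx1 and Myf5, were called higher in both GFP+ sorts than in GFP- cells. Over all genes, 3.9% were called higher in PAX3-FKHR GFP+ and 2.79% in control GFP+ cells. Of the 12 limb mesenchyme markers, 10 were called lower in PAX3-FKHR GFP+ and 9 in control GFP+ cells, against 2.79% and 1.93% of all genes. Control GFP+ replicate 3 stood apart from the other arrays: its weight, estimated over all probe sets, was 0.236, against 0.604 to 2.69 for the other 8 arrays, and it held the highest of the 9 values for 26.9% and the lowest for 18% of all genes.

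Of the 34 ectoderm and epithelial genes, 9 were called lower than in GFP- cells in 1 or both GFP+ sorts, and 0 were called between the sorts with and without PAX3-FKHR. In PAX3-FKHR GFP+ cells 7 of the 34 genes were called lower than in GFP- cells and 0 higher, where 2.79% of all genes were called lower and 3.9% higher. The 7 genes were Krt8, Krt18, Cldn7, Esrp1, Spint1, St14 and Prss8. In control GFP+ cells 5 genes were called lower than in GFP- cells (Cdh1, Cldn7, Perp, Esrp1 and St14) and 0 higher, where 1.93% of all genes were called lower and 2.79% higher. Cldn7, Esrp1 and St14 were called lower in both sorts, which share the GFP- arrays as their reference. The median log2 fold change of the 34 genes against GFP- cells was -0.56 in PAX3-FKHR GFP+ cells (range -1.81 to 0.47) and -0.60 in control GFP+ cells (range -2.17 to 0.19), while the medians over all genes were 0.05 and 0.08. Of the 34 log2 fold changes, 32 lay below 0 in PAX3-FKHR GFP+ cells and 31 in control GFP+ cells.

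Calls were fewer than the genes whose arrays separated. All 3 PAX3-FKHR GFP+ values lay below all 3 GFP- values for 17 of the 34 genes and above them for 1, against 10.1% and 17.8% of all genes. All 3 control GFP+ values lay below the GFP- values for 17 genes and above them for 0, against 6.96% and 17.2% of all genes. At an unadjusted p under 0.05, 20 of the 34 genes were lower in PAX3-FKHR GFP+ and 21 in control GFP+ cells than in GFP- cells, against 7.98% and 6.27% of all genes. The members differed more between replicates than other genes did: the median SD of the 34 genes was 0.188 in PAX3-FKHR GFP+, 0.315 in control GFP+ and 0.372 in GFP- cells, against 0.126, 0.174 and 0.140 over all genes. The calls depend on which arrays enter. With 1 array left out at a time, between 0 and 14 genes were called lower in PAX3-FKHR GFP+ cells, with 0 reached without PAX3-FKHR GFP+ replicate 2 or 3 and 14 without GFP- replicate 1. The same fits gave 1 to 14 genes for control GFP+ cells. Over all 45037 probe sets, 1800 were called lower in PAX3-FKHR GFP+ cells with every array in. Without PAX3-FKHR GFP+ replicate 2 or 3 this became 838 or 1027, and without GFP- replicate 1 it became 1153. For control GFP+ cells it was 1804 with every array in and 1129 without GFP- replicate 1, where 14 of the 34 genes were called. It was 1158 to 1356 in the fits that called 1 of them.

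**Figure D1:**
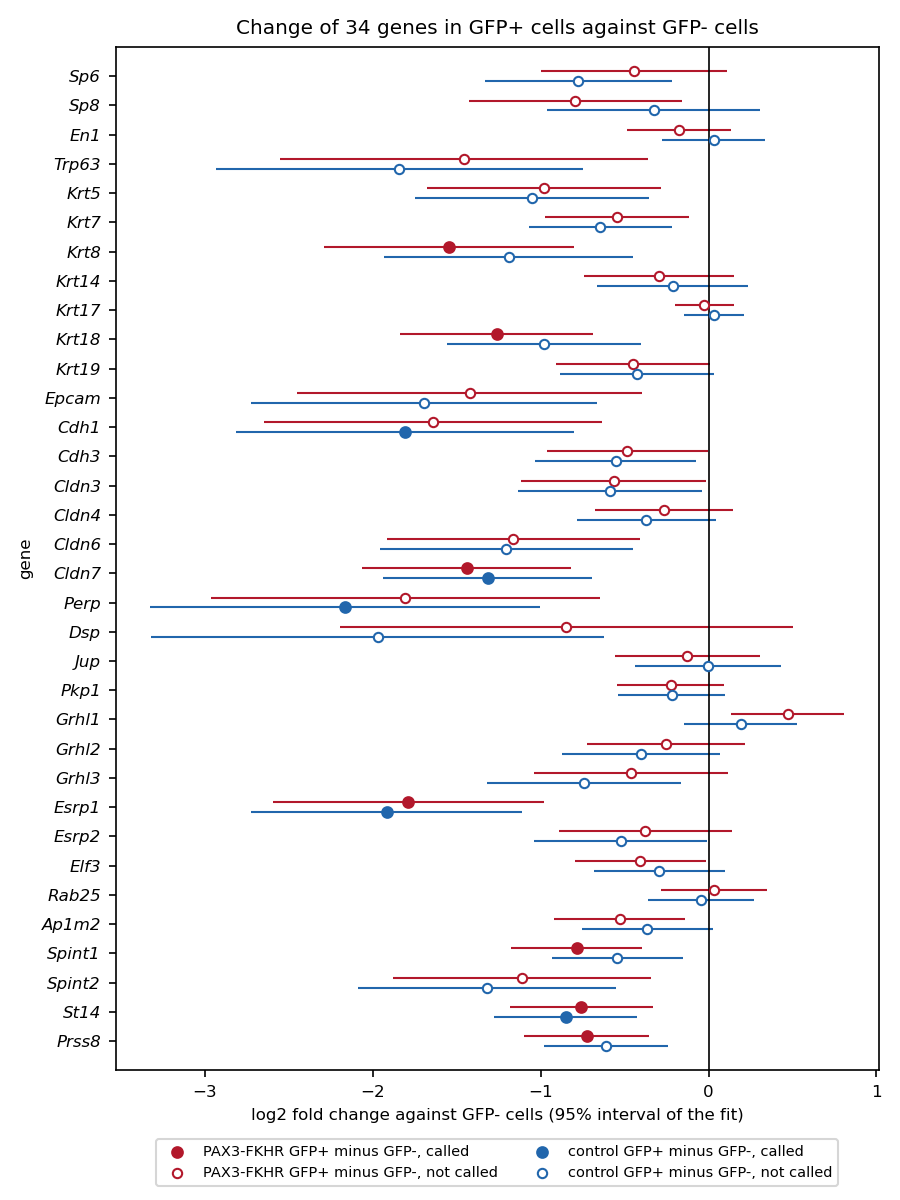
Log2 fold change of each of the 34 genes (rows, in the order of their roles) against GFP- cells, in PAX3-FKHR GFP+ cells (red) and control GFP+ cells (blue), with 95% intervals of the limma fit from 3 arrays a group. Filled points are genes called lower, 7 in PAX3-FKHR GFP+ and 5 in control GFP+ cells, and most open points also lie left of 0.

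Among the ectodermal transcription factors, Trp63, which encodes p63, the regulator of stratified epithelium and of the ridge, showed the widest range. Its values were 5.95, 5.17 and 5.21 in PAX3-FKHR GFP+ cells, 5.33, 5.36 and 4.49 in control GFP+ cells, and 5.77, 6.84 and 8.09 in GFP- cells. GFP- replicate 1 thus lay within the range of the PAX3-FKHR GFP+ arrays, while GFP- replicate 3 lay far above every sorted GFP+ array. The log2 fold changes against GFP- cells were -1.46 ± 0.49 (SE) in PAX3-FKHR GFP+ and -1.84 ± 0.49 in control GFP+ cells, with adjusted p = 0.116 and 0.0553, and neither was called. The 3 dimmer Trp63 probe sets showed log2 fold changes of -0.26, -0.02 and -0.05 in PAX3-FKHR GFP+ cells and -0.28, 0.09 and -0.15 in control GFP+ cells.

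Sp6 and Sp8 encode zinc finger factors of the ectoderm that act in forming the ridge. Sp6 read 5.99, 5.96 and 6.05 in PAX3-FKHR GFP+ cells, 5.96, 6.01 and 5.03 in control GFP+ cells and 6.31, 6.24 and 6.78 in GFP- cells, so that every GFP+ array lay below every GFP- array without a call (log2 fold changes -0.44 ± 0.25 and -0.77 ± 0.25, adjusted p = 0.37 and 0.103). The dimmer Sp6 probe sets did not show this, with log2 fold changes of 0.08, -0.02 and 0.003 in PAX3-FKHR GFP+ cells. In control GFP+ cells they gave 0.17, 0.08 and 0.13. Sp8 lay below the median of all array values, 5.11, on every array. It read 3.82, 3.39 and 3.38 in PAX3-FKHR GFP+ cells, 3.99, 3.99 and 3.99 in control GFP+ cells and 3.50, 4.58 and 4.89 in GFP- cells, with GFP- replicate 1 among the GFP+ values and no call. En1, the homeobox factor of ventral ectoderm, lay between 2.26 and 2.85 on all arrays, and its differences from GFP- cells were -0.18 and 0.03.

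Of the 7 keratins, the pair Krt8 and Krt18, whose proteins form the filaments of simple epithelia, changed together. Krt8 read 6.03, 5.27 and 5.46 in PAX3-FKHR GFP+ cells, 5.81, 5.96 and 6.06 in control GFP+ cells and 6.25, 7.43 and 7.72 in GFP- cells. Krt18 read 6.48, 5.75 and 6.08 in PAX3-FKHR GFP+ cells, 6.34, 6.22 and 6.60 in control GFP+ cells and 6.82, 7.79 and 7.49 in GFP- cells. For both genes every GFP+ array lay below every GFP- array, and GFP- replicate 1 was the nearest to the GFP+ values. Krt8 fell by 1.55 ± 0.34 on the log2 scale in PAX3-FKHR GFP+ cells (adjusted p = 0.02), and Krt18 fell by 1.26 ± 0.26 (adjusted p = 0.0153). In control GFP+ cells their log2 fold changes were -1.19 ± 0.34 and -0.98 ± 0.26, with adjusted p = 0.0654 and 0.0532, short of a call. A second Krt8 probe set was called lower in both sorts, with log2 fold changes of -1.63 in PAX3-FKHR GFP+ and -1.40 in control GFP+ cells (adjusted p = 0.0202 and 0.0436). The dimmest Krt8 probe set was not called in either sort, and both GFP+ groups overlapped GFP- cells on it. Its log2 fold changes were -1.07 in PAX3-FKHR GFP+ and -0.96 in control GFP+ cells (adjusted p = 0.0694 and 0.104). The calls of Krt8 and Krt18 in PAX3-FKHR GFP+ cells held in 2 of the 6 fits that left out 1 array. Over the 6 fits adjusted p reached 0.0935 for Krt8 and 0.076 for Krt18.

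Krt5, the keratin of basal epidermal cells, read 6.42, 5.81 and 5.86 in PAX3-FKHR GFP+ cells, 6.23, 6.29 and 5.36 in control GFP+ cells and 6.46, 7.06 and 7.51 in GFP- cells. The GFP+ arrays lay below the GFP- arrays, at log2 fold changes of -0.98 ± 0.31 and -1.05 ± 0.31 that were not called (adjusted p = 0.0969 and 0.0803). Krt14, the partner of Krt5 in basal cells, was dim, with 4.35, 4.15 and 4.35 in PAX3-FKHR GFP+ cells, 4.28, 4.42 and 4.40 in control GFP+ cells and 4.02, 4.78 and 4.94 in GFP- cells, and the groups overlapped. On a dimmer Krt14 probe set every GFP+ array lay below every GFP- array. Its log2 fold changes of -0.41 and -0.54 were not called (adjusted p = 0.338 and 0.183), and the dimmest Krt14 probe set gave 0.09 and 0.04. Krt7 and Krt19, keratins of simple and ductal epithelia, had log2 fold changes of -0.55 and -0.45 in PAX3-FKHR GFP+ cells and -0.64 and -0.42 in control GFP+ cells. Krt17 lay between 2.84 and 3.12 on all arrays.

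Of the 9 called genes, 4 have a promoter sequence here: Krt8, Krt18, Cldn7 and Spint1. Those of Krt8, Krt18 and Spint1, called lower in PAX3-FKHR GFP+ cells, are shown first. The motif marked in them is the E-box CACCTG, the sequence recognised by the Snail and Zeb repressors of epithelial genes. RefSeq promoter sequences of GRCm38.p6 were given for 21 of the 34 genes, at 25 starts, and the 250 bases before each start were searched on both strands for CACCTG or CAGGTG. Krt8 and Krt18 are transcribed from opposite strands of chromosome 15. The windows are chr15:102004343-102004592 on the minus strand for Krt8 and chr15:102027966-102028215 on the plus strand for Krt18, and chr2:119237110-119237359 on the plus strand for Spint1, written 5′ to 3′ along the gene with the E-box in capitals.
Krt8: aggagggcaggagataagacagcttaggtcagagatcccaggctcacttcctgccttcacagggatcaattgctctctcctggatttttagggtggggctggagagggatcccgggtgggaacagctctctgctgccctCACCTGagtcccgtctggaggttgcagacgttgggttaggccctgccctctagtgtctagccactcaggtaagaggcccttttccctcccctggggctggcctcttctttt
Krt18: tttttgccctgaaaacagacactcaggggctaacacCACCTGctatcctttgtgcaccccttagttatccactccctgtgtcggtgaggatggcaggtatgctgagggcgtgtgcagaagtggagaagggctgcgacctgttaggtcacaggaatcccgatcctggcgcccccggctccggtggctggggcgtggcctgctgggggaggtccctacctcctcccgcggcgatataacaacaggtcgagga
Spint1: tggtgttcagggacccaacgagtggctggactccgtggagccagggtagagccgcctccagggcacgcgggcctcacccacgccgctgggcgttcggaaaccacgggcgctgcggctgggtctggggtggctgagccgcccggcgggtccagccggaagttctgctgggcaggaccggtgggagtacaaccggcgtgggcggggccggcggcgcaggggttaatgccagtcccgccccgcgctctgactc
The Spint1 window holds no E-box. The motif begins 111 bases before the start of Krt8 and 214 bases before that of Krt18. It was present before a start of 13 of the 21 genes (Ap1m2, Cldn4, Cldn6, Cldn7, Elf3, Epcam, Grhl3, Krt18, Krt5, Krt7, Krt8, Rab25 and Spint2), which is 13 of 25 starts or 52%, and in 17.2% of the 18110 starts of genes on the array. Median GC content was 58.4% for the members' windows and 57.6% for those of all array genes. The Grainyhead motif AACCNGTT, or AACNGGTT on the other strand, was found in 1 member window, that of Rab25, and in 1.67% of the windows of array genes. A match is a run of letters and not a bound site, and no binding was measured here.

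Among the adhesion genes, Cdh1 encodes E-cadherin, the core of the epithelial adherens junction, and Epcam encodes an adhesion molecule of epithelial membranes. Cdh1 read 3.91, 3.42 and 3.05 in PAX3-FKHR GFP+ cells, 3.54, 3.79 and 2.54 in control GFP+ cells and 4.16, 5.05 and 6.09 in GFP- cells. Epcam read 7.54, 6.80 and 6.47 in PAX3-FKHR GFP+ cells, 6.98, 7.36 and 5.65 in control GFP+ cells and 7.82, 8.15 and 9.11 in GFP- cells. In both genes GFP- replicate 3 was the highest and control GFP+ replicate 3 the lowest of all arrays, and no GFP+ value reached a GFP- value. Cdh1 was called lower in control GFP+ cells, where it fell by 1.81 ± 0.45 on the log2 scale (adjusted p = 0.0425), and its log2 fold change of -1.64 ± 0.45 in PAX3-FKHR GFP+ cells was not called (adjusted p = 0.0575). The Cdh1 call held in 1 of 6 fits with an array left out. For Epcam the log2 fold changes were -1.42 ± 0.46 in PAX3-FKHR GFP+ and -1.70 ± 0.46 in control GFP+ cells (adjusted p = 0.103 and 0.0592), while a dimmer Epcam probe set gave -0.02 and -0.22. Cdh3, P-cadherin of basal ectoderm, also lay lower on every GFP+ array than on every GFP- array, by -0.48 and -0.55, without a call.

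**Figure D2:**
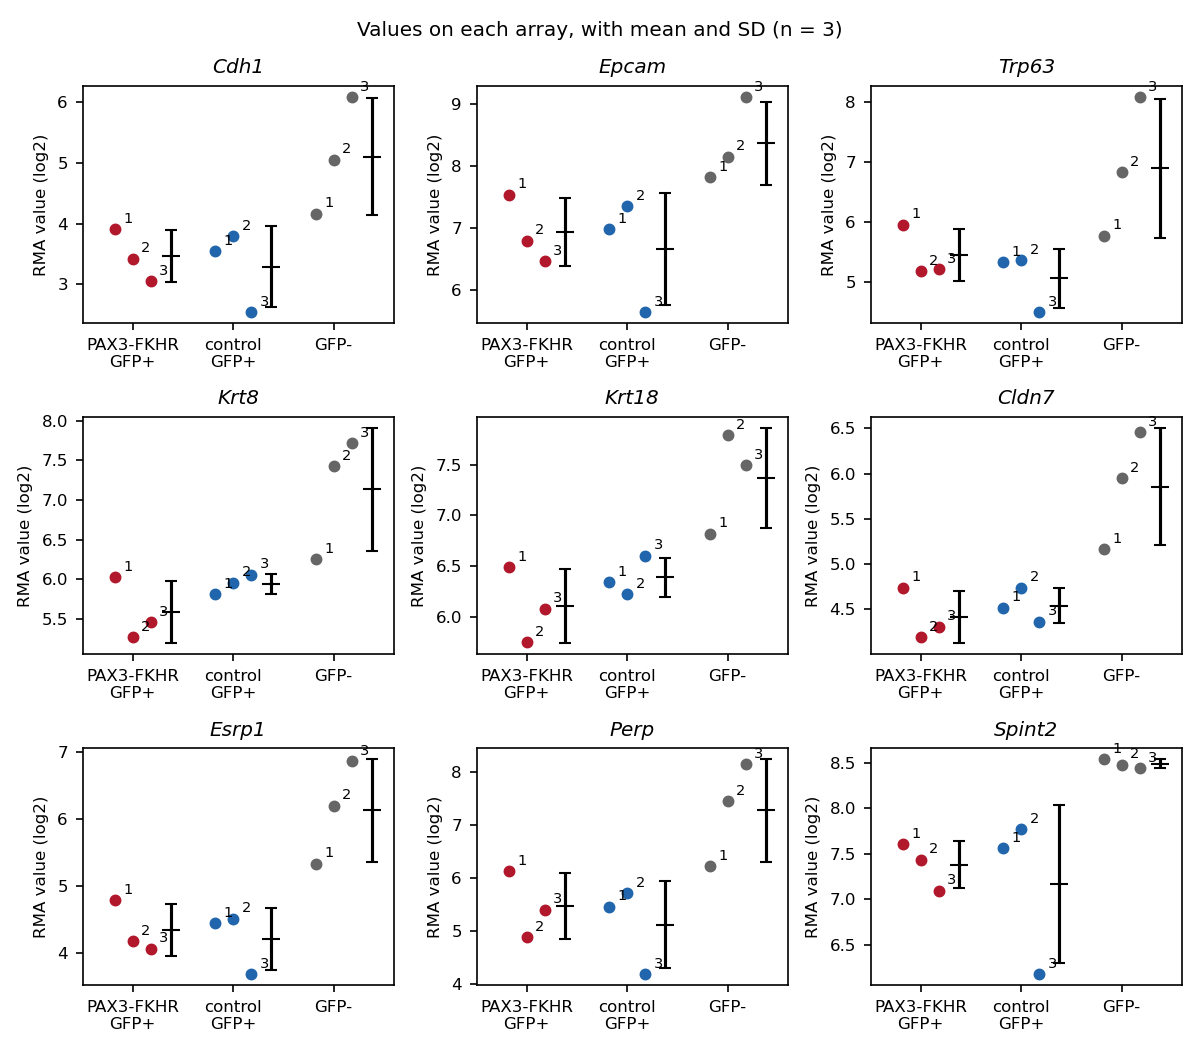
RMA values on the log2 scale (vertical axes, which do not start at 0) of 9 genes on each array, by group, with replicate numbers beside the points and bars for the mean and SD (n = 3). GFP- replicate 3 is the highest array for Cdh1, Epcam, Trp63, Krt8, Cldn7, Esrp1 and Perp, and control GFP+ replicate 3 the lowest for Cdh1, Epcam, Trp63, Esrp1, Perp and Spint2.

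All 4 claudins, the membrane proteins of tight junction strands, had log2 fold changes below 0 in both sorts. Cldn7 read 4.74, 4.19 and 4.31 in PAX3-FKHR GFP+ cells, 4.52, 4.74 and 4.37 in control GFP+ cells and 5.17, 5.95 and 6.45 in GFP- cells, with a gap between the highest GFP+ and the lowest GFP- array. Its log2 fold changes were -1.44 ± 0.28 in PAX3-FKHR GFP+ and -1.31 ± 0.28 in control GFP+ cells, both called lower (adjusted p = 0.0117 and 0.0214). The first call held in 4 and the second in 2 of the 6 fits with an array left out. RefSeq lists 2 starts for Cldn7. The window before the first has no E-box, and the window before the second, chr11:69965171-69965420 on the plus strand, has the motif in both orientations, 97 and 57 bases before the start, shown in capitals.
Cldn7: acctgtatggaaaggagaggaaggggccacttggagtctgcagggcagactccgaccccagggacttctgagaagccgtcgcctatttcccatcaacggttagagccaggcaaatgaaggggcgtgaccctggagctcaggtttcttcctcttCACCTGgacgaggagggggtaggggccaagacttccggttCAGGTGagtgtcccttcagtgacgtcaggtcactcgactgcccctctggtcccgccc
Cldn6, a claudin of embryonic epithelia, read 5.25, 5.16 and 4.71 in PAX3-FKHR GFP+ cells, 5.25, 5.20 and 4.55 in control GFP+ cells and 5.43, 6.22 and 6.95 in GFP- cells. The groups did not overlap, but GFP- replicate 1 lay close to the GFP+ arrays, and the log2 fold changes of -1.16 ± 0.34 and -1.20 ± 0.34 were not called (adjusted p = 0.0701 and 0.0659). Cldn3 and Cldn4 had log2 fold changes of -0.56 and -0.26 in PAX3-FKHR GFP+ cells and of -0.58 and -0.37 in control GFP+ cells.

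In the desmosome group, Perp, a p63 target required for desmosome assembly in epidermis, had the most negative log2 fold change of the 34 genes in both sorts. Its values were 6.14, 4.89 and 5.41 in PAX3-FKHR GFP+ cells, 5.46, 5.72 and 4.18 in control GFP+ cells and 6.23, 7.46 and 8.16 in GFP- cells, with PAX3-FKHR GFP+ replicate 1 just under GFP- replicate 1. Perp fell by 2.17 ± 0.52 on the log2 scale in control GFP+ cells (adjusted p = 0.0359, held in 2 of 6 fits with an array left out), and its log2 fold change in PAX3-FKHR GFP+ cells was -1.81 ± 0.52 (adjusted p = 0.0679). Dsp, which encodes desmoplakin, the plaque protein that ties keratin to the desmosome, read 6.07, 6.11 and 5.78 in PAX3-FKHR GFP+ cells, 5.04, 5.94 and 3.61 in control GFP+ cells and 5.77, 6.65 and 8.08 in GFP- cells. Control GFP+ replicate 3 was far below the other arrays and GFP- replicate 3 far above them, and the SD reached 1.18 in control GFP+ cells. The brightest Dsp probe set was not called, at log2 fold changes of -0.85 ± 0.61 and -1.97 ± 0.61 (adjusted p = 0.494 and 0.0898). A second Dsp probe set gave -1.58 in PAX3-FKHR GFP+ cells (adjusted p = 0.0629) and was called lower in control GFP+ cells, where it fell by 2.00 (adjusted p = 0.0264). Jup and Pkp1, plakoglobin and plakophilin of the same plaque, overlapped between all groups, with log2 fold changes of -0.13 and -0.22 in PAX3-FKHR GFP+ cells.

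Esrp1, an RNA-binding protein that sets the epithelial splicing pattern of transcripts such as Fgfr2, was the member whose call in control GFP+ cells held in all 6 fits with an array left out. It read 4.78, 4.18 and 4.06 in PAX3-FKHR GFP+ cells, 4.45, 4.51 and 3.68 in control GFP+ cells and 5.33, 6.19 and 6.86 in GFP- cells. Every GFP+ array lay below GFP- replicate 1, the lowest array of its group. Esrp1 fell by 1.79 ± 0.36 on the log2 scale in PAX3-FKHR GFP+ cells and by 1.92 ± 0.36 in control GFP+ cells (adjusted p = 0.0145 and 0.0127). The call in PAX3-FKHR GFP+ cells held in 3 of 6 such fits, and with replicate 3 of both control GFP+ and GFP- cells left out the adjusted p in control GFP+ cells was 0.0532. Its paralog Esrp2 had log2 fold changes of -0.38 and -0.52, neither called, and the groups overlapped.

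The other regulators of the epithelial state, the Grainyhead-like factors Grhl1, Grhl2 and Grhl3 and the Ets factor Elf3, were not called. Grhl1 was the gene of the 34 with the highest log2 fold change in PAX3-FKHR GFP+ cells. It read 4.76, 4.95 and 5.16 there, against 4.73, 4.80 and 4.50 in control GFP+ cells and 4.33, 4.38 and 4.75 in GFP- cells. All PAX3-FKHR GFP+ values lay above the GFP- values, by a narrow margin, and the log2 fold change of 0.47 ± 0.15 had an adjusted p of 0.0978. Grhl2 lay between 5.28 and 6.50 on all arrays and overlapped between groups, with log2 fold changes of -0.25 and -0.40. Grhl3, a factor of surface ectoderm and later of the epidermal barrier, was dimmer. Its highest arrays were GFP- replicates 2 and 3 with 4.19 and 4.67, above 2.95 to 3.75 on the GFP+ arrays. GFP- replicate 1, at 3.555, lay among the GFP+ values, so the groups overlapped.

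The membrane proteases and their inhibitors form a linked system at epithelial surfaces. St14 encodes matriptase, Prss8 encodes prostasin, and Spint1 and Spint2 encode the Kunitz-type inhibitors HAI-1 and HAI-2 that hold them in check. St14 read 5.64, 5.61 and 5.53 in PAX3-FKHR GFP+ cells, 5.24, 5.86 and 5.40 in control GFP+ cells and 6.03, 6.38 and 6.64 in GFP- cells. No GFP+ value reached a GFP- value, and St14 fell by 0.76 ± 0.19 on the log2 scale in PAX3-FKHR GFP+ and by 0.85 ± 0.19 in control GFP+ cells (adjusted p = 0.0406 and 0.0274). Prss8 read 3.96, 3.85 and 3.91 in PAX3-FKHR GFP+ cells, 4.14, 4.08 and 3.86 in control GFP+ cells and 4.20, 4.85 and 4.85 in GFP- cells. It was below the median of all array values throughout, and it fell by 0.73 ± 0.17 in PAX3-FKHR GFP+ cells (adjusted p = 0.0265) with a log2 fold change of -0.61 ± 0.17 in control GFP+ cells (adjusted p = 0.0585).

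Spint1 read 5.19, 5.02 and 5.14 in PAX3-FKHR GFP+ cells, 5.25, 5.35 and 5.49 in control GFP+ cells and 5.49, 6.03 and 6.20 in GFP- cells. The PAX3-FKHR GFP+ arrays lay below both other groups, and the gene fell by 0.79 ± 0.18 on the log2 scale against GFP- cells (adjusted p = 0.0239), with a log2 fold change of -0.54 ± 0.18 in control GFP+ cells (adjusted p = 0.104). Spint2 read 7.60, 7.44 and 7.10 in PAX3-FKHR GFP+ cells, 7.56, 7.77 and 6.17 in control GFP+ cells and 8.54, 8.48 and 8.44 in GFP- cells. Unlike Trp63 or Cdh1 it was level over the GFP- arrays, all of which lay above the GFP+ arrays. Control GFP+ replicate 3 was the lowest array, and the log2 fold changes of -1.11 ± 0.35 and -1.32 ± 0.35 were not called (adjusted p = 0.089 and 0.0513). Its second probe set was called lower in control GFP+ cells, where it fell by 1.68 (adjusted p = 0.0292). Without control GFP+ replicate 2 or 3 the brightest Spint2 probe set was called in control GFP+ cells (adjusted p = 0.031 and 0.0215). The PAX3-FKHR GFP+ calls of St14, Prss8 and Spint1 each held in 1 of 6 fits with an array left out, and the control GFP+ call of St14 held in 2 (adjusted p up to 0.0895). Rab25 and Ap1m2, trafficking genes of polarised epithelial cells, were not called, and Rab25 differed from GFP- cells by 0.03 and -0.04.

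Between the 2 GFP+ sorts, 0 of the 34 genes were called higher or lower with limma, where 0.203% of all genes were called lower and 0.61% higher in PAX3-FKHR GFP+ cells than in control GFP+ cells. At an unadjusted p under 0.05 the count was also 0, where 4.49% of all genes were lower in PAX3-FKHR GFP+ cells. The share of all genes higher at this p was not counted. The local pooled error test called 1 gene higher. The groups failed to overlap for 2 genes, Sp8 and Spint1, both lower in PAX3-FKHR GFP+ cells, and for 0 genes in the other direction, against 8.88% and 5.42% of all genes. The median log2 fold change of PAX3-FKHR GFP+ over control GFP+ cells was 0.07, against -0.03 over all genes, and 33 of the 34 log2 fold changes were within 0.5 of 0. The exception was Dsp at 1.12 ± 0.61 (95% interval -0.23 to 2.47, adjusted p = 0.764), for which control GFP+ replicate 3 at 3.61 was the lowest array. The 95% intervals were -0.84 to 1.18 for Cdh1, -0.68 to 0.93 for Esrp1, -0.75 to 0.50 for Cldn7, -1.10 to 0.39 for Krt8, -0.80 to 1.52 for Perp and -0.33 to 0.52 for St14. The intervals of Perp and Cdh1 reach past a doubling in PAX3-FKHR GFP+ cells and that of Krt8 past a doubling in control GFP+ cells, so the absence of a call does not show that the sorts were alike.

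The spread of these genes followed particular arrays. GFP- replicate 3 held the highest of the 9 values for 24 of the 34 genes, against 9.18% of all genes, and control GFP+ replicate 3 held the lowest for 18 of the 34, against 18% of all genes. Within the GFP- group, replicate 3 was the highest for 25 genes and replicate 1 the lowest for 25, where these shares were 30% and 37.8% over all genes. Averaged over the 34 genes, the deviation from each gene's mean over the 9 arrays was -0.09, -0.30 and -0.28 in PAX3-FKHR GFP+ replicates 1 to 3, -0.16, -0.06 and -0.62 in control GFP+ replicates 1 to 3, and 0.10, 0.55 and 0.87 in GFP- replicates 1 to 3. On this average every GFP- array lay above every GFP+ array, and GFP- replicate 1 was nearer to the GFP+ arrays than to GFP- replicate 3.

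**Figure D3:**
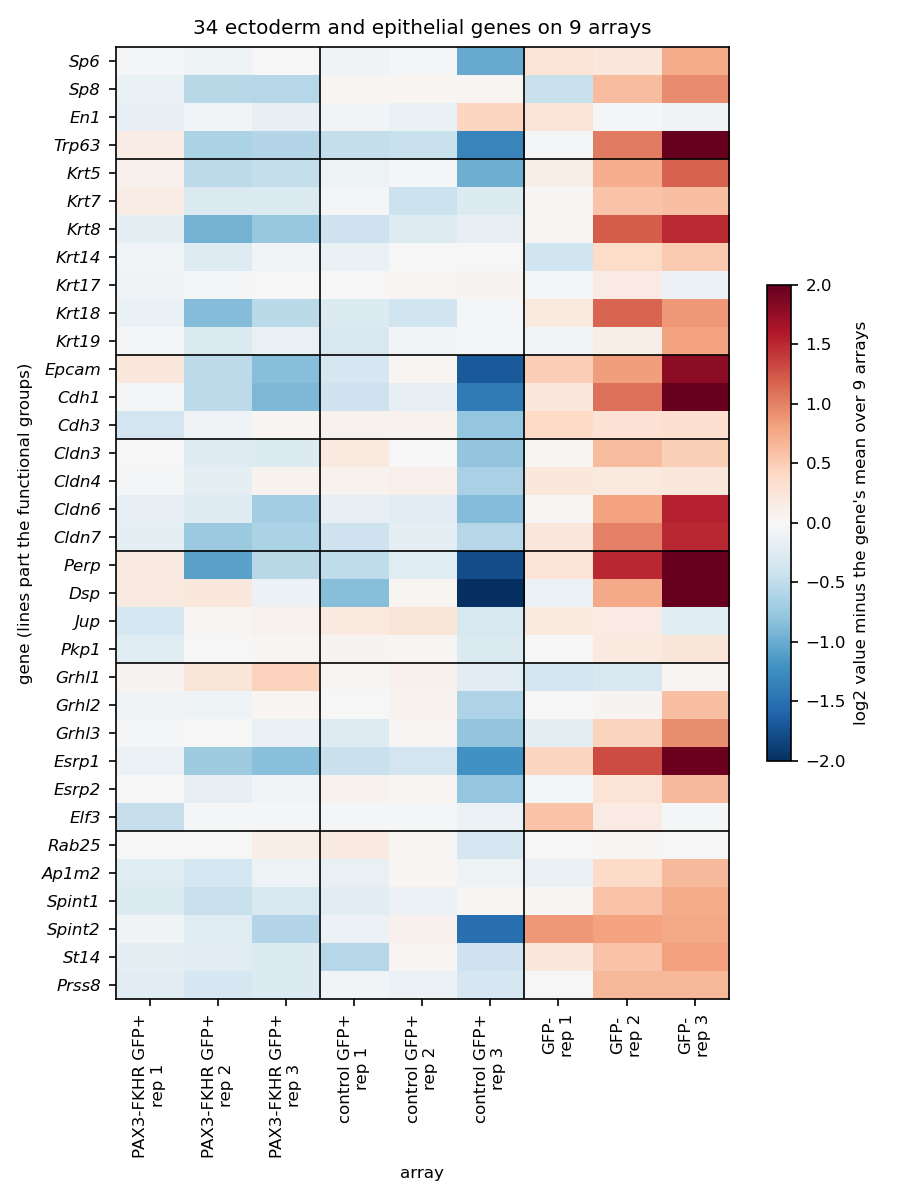
Value of each of the 34 genes (rows, lines part the groups by role) on each of the 9 arrays (columns) as the log2 difference from the gene's mean over the arrays, with red above and blue below it and the scale ending at 2 in both directions. The GFP- replicate 3 column is the reddest, holding the highest value for 24 genes, and the control GFP+ replicate 3 column holds the lowest for 18.

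Markers of other cells moved with part of this pattern. The mean deviation of 8 erythroid markers was -0.52, 0.10 and -0.89 in PAX3-FKHR GFP+ cells, -0.67, 0.32 and -1.42 in control GFP+ cells and -1.14, 1.75 and 2.47 in GFP- cells, so that the erythroid list and the ectoderm genes were both lowest in replicate 1 and highest in replicate 3 of the GFP- group. Of these markers 2 of 8 were called lower in PAX3-FKHR GFP+ cells (Klf1 and Gata1), against 2.79% of all genes. In control GFP+ cells 1 of 8 was called lower (Klf1), against 1.93% of all genes. The 7 macrophage markers rose in the same order, with mean deviations of 0.32, 0.43 and 0.55 in GFP- replicates 1 to 3. They ranged over -1.25 to 0.80 in PAX3-FKHR GFP+ and -1.04 to 0.31 in control GFP+ cells. Against GFP- cells 0 of 7 were called, where 2.79% and 1.93% of all genes were called lower in the 2 sorts. The 12 limb mesenchyme markers were nearly level among the GFP- arrays, at 0.96 to 1.16, against -0.86 to -0.33 in PAX3-FKHR GFP+ and -0.62 to -0.35 in control GFP+ cells. The 11 endothelial markers also rose from GFP- replicate 1 to 3, at -0.745, -0.127 and 0.26. They spanned -0.34 to 0.20 in PAX3-FKHR GFP+ and -0.17 to 0.96 in control GFP+ cells. Against GFP- cells 0 of 11 were called, where 3.9% and 2.79% of all genes were called higher in the 2 sorts. Of 8 neuronal markers 5 were called higher in PAX3-FKHR GFP+ cells than in GFP- cells, against 3.9% of all genes. In control GFP+ cells 4 of 8 were called higher, against 2.79% of all genes. Myogenic markers lay between 1.28 and 1.59 in PAX3-FKHR GFP+, 0.93 and 1.22 in control GFP+ and -2.67 and -2.16 in GFP- cells. What part the make-up of each sorted sample had in the ectoderm values was not tested.

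**Figure D4:**
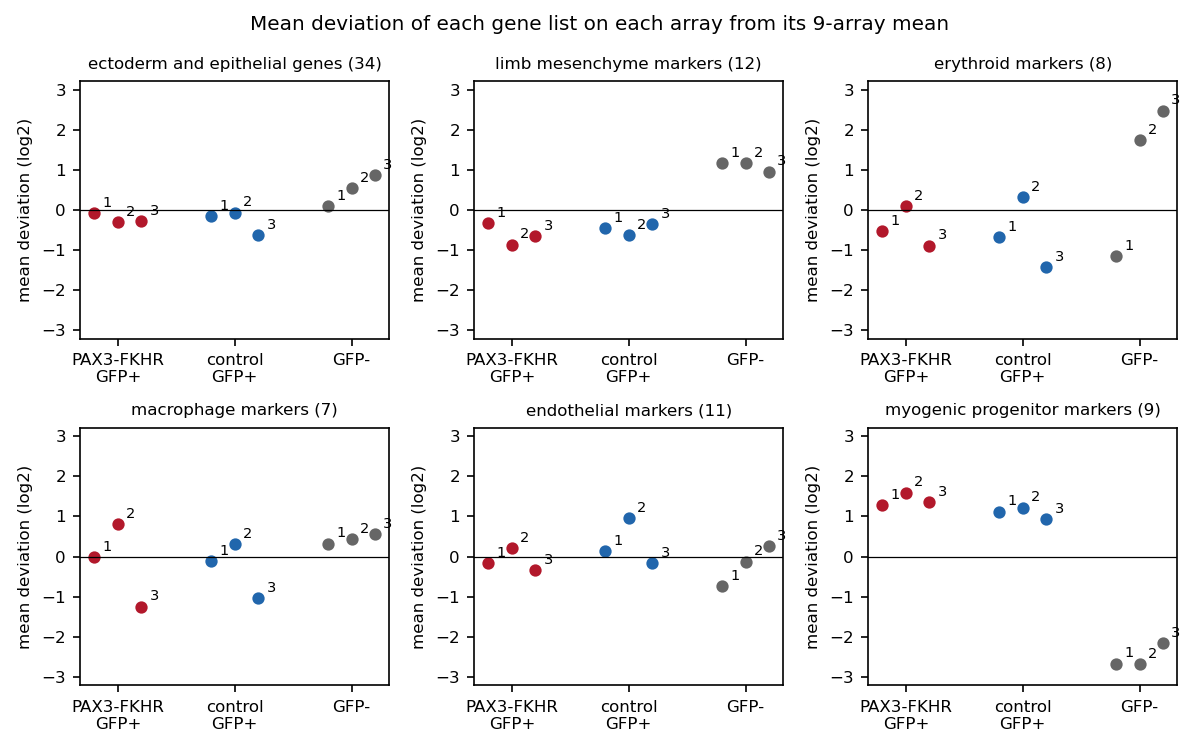
Mean deviation of each gene list on each array from its mean over the 9 arrays (log2, number of genes in brackets), with replicate numbers beside the points. Ectoderm and epithelial genes and erythroid, macrophage and endothelial markers are all lowest in GFP- replicate 1 and highest in replicate 3 of that group. Mesenchyme markers are nearly level among the GFP- arrays, and myogenic markers are high in every GFP+ array.

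Related genes outside the 34 did not move as a block. Of 28 further junction and polarity genes, 3 were called lower and 2 higher in PAX3-FKHR GFP+ cells than in GFP- cells. The shares over all genes were 2.79% lower and 3.9% higher. In control GFP+ cells 0 were called lower and 2 higher, against 1.93% and 2.79% of all genes. The lower genes were Lsr, a receptor of tricellular tight junctions, Mpzl2, an epithelial Ig adhesion molecule, and Dsg2, a desmosomal cadherin, with log2 fold changes of -0.98, -1.33 and -1.32 (adjusted p = 0.00586, 0.00298 and 0.0437). A dimmer Dsg2 probe set was called lower in both sorts, at log2 fold changes of -1.43 in PAX3-FKHR GFP+ and -1.59 in control GFP+ cells (adjusted p = 0.0281 and 0.0196). The 2 higher genes were Pkp2, a plakophilin that is also found in non-epithelial cells, and Myo5b, a motor of recycling vesicles. Pkp2 read 8.07, 8.30 and 8.20 in PAX3-FKHR GFP+ cells, 6.42, 6.42 and 6.21 in control GFP+ cells and 3.42, 3.83 and 4.75 in GFP- cells, with no overlap between any groups. Its log2 fold change was 4.19 in PAX3-FKHR GFP+ and 2.36 in control GFP+ cells over GFP- cells (adjusted p = 1.5e-05 and 0.00103), and 1.84 between the sorts (adjusted p = 0.0165). Myo5b was likewise higher in PAX3-FKHR GFP+ than in control GFP+ cells, by 0.85 (adjusted p = 0.0263), and higher in each than in GFP- cells, by 2.64 and 1.79. With the replicate number as a block, 1 of these 2 genes was called between the sorts.

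Of 18 genes for ridge and ectodermal signals and their targets, 2 were called lower and 2 higher in PAX3-FKHR GFP+ cells than in GFP- cells. The shares over all genes were 2.79% lower and 3.9% higher. In control GFP+ cells 3 were called lower and 1 higher, against 1.93% and 2.79% of all genes. Msx2 and Bmp7, a homeobox target of BMP signals and a BMP ligand that the limb mesenchyme also expresses, had log2 fold changes of -2.10 and -1.26 in PAX3-FKHR GFP+ cells and of -2.11 and -1.17 in control GFP+ cells. Fgf9, an FGF ligand that the ridge makes, was higher in the GFP+ sorts, by 1.42 and 2.05 (adjusted p = 0.000739 and 0.000127). Fgf8, the main FGF of the ridge, read 5.60, 5.64 and 5.99 in PAX3-FKHR GFP+ cells, 4.60, 4.65 and 4.55 in control GFP+ cells and 5.18, 5.58 and 5.41 in GFP- cells. It was called lower in control GFP+ cells than in GFP- cells, by 0.79 (adjusted p = 0.0112), and higher in PAX3-FKHR GFP+ than in control GFP+ cells, by 1.14 (adjusted p = 0.00712). Dlx5, a homeobox gene of the ridge and mesenchyme, was also higher in PAX3-FKHR GFP+ than in control GFP+ cells, by 1.49 (adjusted p = 0.00712), and than in GFP- cells, by 1.06. A dimmer probe set of Wnt6, a Wnt ligand of the ectoderm, was called lower in both sorts (log2 fold changes -0.70 and -0.73, adjusted p = 0.0482 and 0.045), and it is named because its values were seen. None of the 10 hemidesmosome and basal lamina genes, 6 further epithelial transcription factors or 11 further keratin and periderm genes was called in either comparison with GFP- cells by its brightest probe set. Over all genes only 2.79% and 1.93% were called lower in the 2 sorts, and 3.9% and 2.79% higher. Array weights, the replicate block or leaving out GFP- replicate 3 each called 1 of the 6 transcription factors lower in both sorts.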

How the data were processed

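RNA of pooled, sorted forelimb bud cells was amplified in 2 cycles and hybridised by the authors, who deposited log2 values per probe set made with RMA, which corrects background, brings the arrays to a common distribution and summarises the probes. The version of RMA is not given in the sources used here, and present or absent calls were not used here. Array controls (64 probe sets) were set aside. Gene symbols came from the array annotation (34945 probe sets with 1 symbol, 932 with several, 9160 with none).

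A linear model over the 9 arrays was fitted by limma 3.58.1 under R 4.3.3 (eBayes with an intensity trend). Adjusted p is from this fit, with Benjamini-Hochberg adjustment over 45037 probe sets, and ± is its standard error. The fit was tested on simulated data. The members, the gene lists set beside them and the motifs were chosen with earlier results of these data known. Arrays are given one by one for genes called or with a log2 fold change of 1 or more in size, and for defining ectoderm markers. From the other lists, up to 4 called genes per list and comparison are named. Promoter windows are from RefSeq (GRCm38.p6), 250 bases before the start. Precision is limited by having 3 arrays a group. Equal replicate numbers of PAX3-FKHR GFP+ and control GFP+ arrays deviated together (correlations 0.164, 0.472 and 0.287). Those of GFP- arrays gave -0.237, 0.155 and -0.288 with PAX3-FKHR GFP+ and 0.0651, 0.0682 and -0.205 with control GFP+ arrays. The highest correlations with a GFP- array of another number were 0.319, -0.0272 and 0.322 for PAX3-FKHR GFP+ replicates 1 to 3. For control GFP+ replicates 1 to 3 they were 0.116, 0.179 and 0.156. Equal numbers thus need not mark matched pools in the comparisons with GFP- cells, which limits the replicate block there. No source ties a number to a day or litter. Alternatives covered array scaling and weights, the trend, the replicate block, the arrays fitted, the study's local pooled error test, thresholds, filters and each array left out.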

Additional observations from a re-analysis of the deposited data

How the results depend on the processing

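All alternatives kept the median log2 fold change of the 34 genes within the spread between replicates, 0.29. Against GFP- cells, no median and no log2 fold change of a checked gene changed direction. The median between the sorts, 0.07, is smaller than this spread, so its direction was not judged. Counts of calls moved. Over all probe sets, array weights raised the calls lower from 1800 to 2625 in PAX3-FKHR GFP+ cells. In control GFP+ cells they raised them from 1804 to 2488. Without the intensity trend the calls lower over all probe sets were 1754 in PAX3-FKHR GFP+ and 1709 in control GFP+ cells. With only the 6 arrays compared they were 2013 and 1335. A mean of at least 5 left 1600 and 1521 of 23398 probe sets called lower. Being above the median on 3 arrays left 1752 and 1667 of 23557, and the mean of a gene's probe sets 537 and 422 of 18193 genes. In PAX3-FKHR GFP+ against GFP- cells, 7 genes were called lower and 0 higher. The count lower became 14 with array weights, 16 with the local pooled error test, and 4 each with a log2 fold change of at least 1 and with a mean of at least 5 (20 members kept). Leaving out 1 array gave 0 to 14 lower and 0 to 1 higher: 0 came from dropping PAX3-FKHR GFP+ replicate 2 or 3, 4 from dropping its replicate 1, and 14, 1 and 2 from dropping GFP- replicate 1, 2 and 3. Array weights called 1 higher. Over all probe sets, dropping PAX3-FKHR GFP+ replicate 1 or GFP- replicate 2 or 3 gave 1547, 1268 and 1423 lower. In control GFP+ against GFP- cells, 5 were called lower, and the count became 3 without the intensity trend, 14 with array weights, 1 with only the 6 arrays compared, 13 with the local pooled error test, and 8 each for genes above the median on 3 arrays (24 members kept) and for the mean of a gene's probe sets. Leaving out 1 array gave 1 to 14, where 1 came from dropping replicate 1 of control GFP+ cells or replicate 2 or 3 of GFP- cells, 2 from dropping control GFP+ replicate 3, and 14 from dropping GFP- replicate 1. Over all probe sets, dropping control GFP+ replicate 3 gave 1882 lower. Of 2 fits chosen after seeing the data, the one that dropped replicate 3 of both control GFP+ and GFP- cells called 1 gene higher in PAX3-FKHR GFP+ cells and 1 lower in control GFP+ cells, and the one that dropped control GFP+ replicate 3 with GFP- replicate 1 called 19 and 12 lower. Over all probe sets the first fit called 1720 higher in PAX3-FKHR GFP+ and 1559 lower in control GFP+ cells. The second called 1598 and 1173 lower, against 1800 and 1804 with every array in. Between the sorts, 0 were called, and the local pooled error test called 1 higher. The local pooled error test does not use each probe set's own spread, and its calls over all genes were not counted. Over all probe sets, the replicate number as a block called 2227, 2314 and 51 lower in the 3 comparisons, against 1800, 1804 and 64 in the reported fit. Of the 34 genes, the block called 8, 4 and 0 lower. It ended the calls of Cdh1 and Perp in control GFP+ cells (adjusted p = 0.0634 and 0.0572) and made Spint2 called in both sorts (adjusted p = 0.0444 in PAX3-FKHR GFP+ and 0.0227 in control GFP+ cells). Of the 6 further epithelial transcription factors, 0 were called in the reported fit, and the block called 1 lower in each sort than in GFP- cells, as did array weights, the local pooled error test and the fit that dropped GFP- replicate 3. Between the PAX3-FKHR GFP+ and control GFP+ sorts the block also called 0 of the 34 genes higher, on all arrays and on their 6 arrays alone (added after seeing the data). The causes of these shifts were not tested beyond the arrays or genes that each alternative removes.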
